A study of Mus musculus with 42 samples.

Results

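Genes of megakaryocytes and platelets were followed in mouse spleen after an injection of CpG oligodeoxynucleotides, short synthetic DNAs that engage the endosomal receptor TLR9. The set was a list of 34 genes chosen by name, and each gene's value was the mean of the array features that carry its symbol alone. Of the 34 genes, 29 had such a feature, against 15277 genes on the whole array, and 23 of the 29 had a value on all 42 arrays. Gp1ba, Tubb1, Serpine2, Ptgs1 and Bin2 had no feature of their own and have no values here.

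Megakaryocytes are large cells that shed platelets into the blood. In the mouse they reside in the red pulp of the spleen as well as in bone marrow, and the spleen also holds a pool of circulating platelets. Platelets stick to damaged vessel walls through a receptor for von Willebrand factor, clump through the fibrinogen receptor, and release stored proteins from granules. They carry RNA inherited from the megakaryocyte.

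Spleens came from female BALB/c mice. CpG mice received 400 µg, into the peritoneum, of an equimolar mixture of the CpG oligodeoxynucleotides (ODN) 1555 and 1466, and their spleens were taken after 3, 9, 24 and 72 h and after 5, 7, 9 and 14 days. Control mice received 400 µg of an equimolar mixture of the ODN 1612 and 1471, by the same route, and were sampled after 3 h only. The labels give no treatment for the untreated mice. The untreated group had 6 arrays and each of the other 9 groups had 4, which the series describes as independent biological replicates; ages were not given in the sources used here.

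Each array compared Cy5-labelled spleen cDNA with Cy3-labelled cDNA of a universal mouse reference RNA, which is a mixture from several tissues and cell types. Values are therefore log2 ratios of spleen over reference, with log base and direction inferred from the values, and a ratio of one gene cannot be set against that of another. In untreated spleens the B-cell gene Cd79a (5.64 ± 0.55, SD, n = 6), the globin gene Hbb-b1 (6.83 ± 0.78) and the class II gene H2-Aa (6.79 ± 0.12) lay far above the reference, as did Ppbp among the platelet genes (4.37 ± 0.52). Between 173 and 1740 of 30601 features lacked a value on an array. The database numbers in the array titles fall into 10 runs of neighbouring numbers, 4 of them with 1 array, and only the 3-h CpG group has an array in a run with an untreated array. For all other groups run and treatment cannot be told apart against untreated spleen within a run, although 9 and 24 h are linked to it through runs that also hold 3-h arrays. In whole spleen, fewer cells of a type and less RNA per cell cannot be told apart either, and platelets held in the organ are measured with its megakaryocytes.

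Members were chosen as one lineage, so the bases before the transcription start of 4 of its typical genes are shown: Pf4 (platelet factor 4, a granule chemokine), Itga2b (the alpha chain of the fibrinogen receptor), Gp9 (a subunit of the von Willebrand factor receptor) and Gp6 (the collagen receptor). The sequences are from RefSeq on build GRCm38.p6 and give 250 bases upstream of 1 listed start per gene, 5′ to 3′ on the strand of the gene. For Gp9 the bases lie within the annotated span of the gene (87776131 to 87779786), and for Gp6 part of them do (its span ends at 4397851). They are chr5:90772185-90772434 (plus strand) for Pf4, chr11:102469884-102470133 (minus strand) for Itga2b, chr6:87777820-87778069 (plus strand) for Gp9 and chr7:4397745-4397994 (minus strand) for Gp6. Capitals mark letters of the kinds searched, on either strand: AGGAAG or CGGAAG, the core letters bound by ETS factors such as the member Fli1, and AGATAA or TGATAA, those bound by GATA factors such as Gata1.
Pf4: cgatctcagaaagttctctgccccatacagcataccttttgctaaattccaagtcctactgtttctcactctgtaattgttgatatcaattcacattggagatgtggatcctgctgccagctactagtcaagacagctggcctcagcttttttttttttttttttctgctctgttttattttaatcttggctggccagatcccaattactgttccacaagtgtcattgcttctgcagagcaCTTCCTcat
Itga2b: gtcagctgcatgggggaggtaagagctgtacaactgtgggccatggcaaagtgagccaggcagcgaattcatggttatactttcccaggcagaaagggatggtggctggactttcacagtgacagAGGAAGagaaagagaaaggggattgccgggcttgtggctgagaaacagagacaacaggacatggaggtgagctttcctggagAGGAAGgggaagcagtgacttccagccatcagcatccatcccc
Gp9: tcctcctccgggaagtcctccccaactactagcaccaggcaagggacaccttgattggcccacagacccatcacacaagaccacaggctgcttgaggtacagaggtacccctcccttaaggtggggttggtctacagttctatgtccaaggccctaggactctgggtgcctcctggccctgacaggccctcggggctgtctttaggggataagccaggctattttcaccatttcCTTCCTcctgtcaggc
Gp6: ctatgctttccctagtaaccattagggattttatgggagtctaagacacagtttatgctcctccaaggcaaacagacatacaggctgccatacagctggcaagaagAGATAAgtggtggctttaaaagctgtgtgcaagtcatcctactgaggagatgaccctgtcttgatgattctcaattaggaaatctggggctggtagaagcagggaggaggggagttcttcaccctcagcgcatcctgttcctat
Pf4 and Gp9 each held 1 ETS match, read on the opposite strand, Itga2b held 2 and Gp6 held 1 GATA match. The RefSeq table had 24 promoters for 22 of the 29 measured members. ETS letters lay in 13 of these 24 (54.2%) and in 39.2% of all 32851 promoters, and GATA letters in 6 of the 24 (25%) and in 16.6% of all. A match is a description of the letters and not a binding site.

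The mean of 10 platelet genes was near its untreated level during the first day after CpG. It was higher at 5 days, lower at 7 days than at 5 days, and highest at 9 days. These 10 core platelet genes were Pf4, Ppbp, Itga2b, Itgb3, Gp1bb, Gp5, Gp6, Gp9, Treml1 and Clec1b. Their mean was 1.86 ± 0.18 (SD, n = 6) on the log2 ratio scale in untreated spleens. It was 1.88 ± 0.21, 2.09 ± 0.13 and 2.03 ± 0.25 at 3, 9 and 24 h (n = 4 each), all within or close to the untreated range of 1.63 to 2.10. It was 2.34 ± 0.37 at 72 h, 2.67 ± 0.30 at 5 days, 2.32 ± 0.05 at 7 days, 3.10 ± 0.26 at 9 days and 2.46 ± 0.13 at 14 days. All 4 arrays at 9 days (2.76, 3.05, 3.28 and 3.33) lay above all untreated arrays. So did all arrays at 5 days (lowest 2.48), 7 days (lowest 2.26) and 14 days (lowest 2.27), and those at 7 days were the tightest group. The control ODN, 72-h, 7-day and 14-day arrays all lie in 1 run. The 5- and 9-day arrays lie in runs that no other group shares. Run and time therefore cannot be told apart between these 2 times and the others. With control ODN the mean was 2.43 ± 0.41, and its lowest array (2.03) lay within the untreated range. Over the 42 arrays 4 values were missing, and the mean there was of the genes left, so such arrays are not strictly alike. Untreated replicate 4 (2.10) and 72-h replicate 2 (2.61) lacked Gp1bb. Control ODN replicate 3 (2.17) lacked Gp5, and 9-h replicate 2 (2.03) lacked Itgb3. The 10 genes are a score chosen by name, and no test was made on their mean. Whether other spleen cells express them was not examined.

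**Figure D1:**
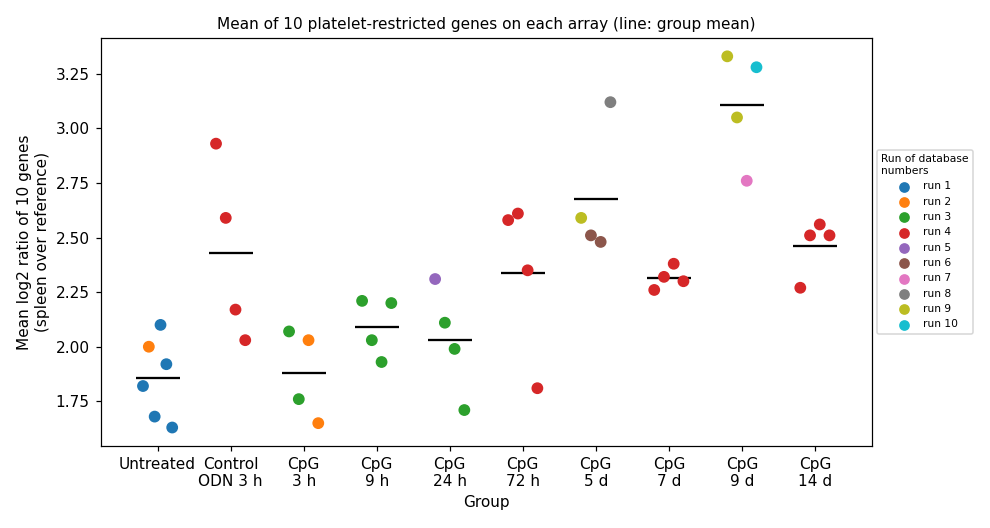
Mean log2 ratio of spleen over reference of the 10 core platelet genes (titled platelet-restricted in the figure) on each of the 42 arrays, by group. Points are arrays, coloured by run of database numbers, and lines are group means. The 4 arrays at 9 days lie between 2.76 and 3.33, the untreated arrays between 1.63 and 2.10, and no run holds both.

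Across all CpG times, 24 of the 27 members that could be tested differed from untreated at some time by limma's F test (adjusted p below 0.05), where 63.6% of all genes did. Differences at single times were tested with limma, in a model of all 42 arrays, with Benjamini-Hochberg adjustment over all genes, and "rose" and "fell" below mean an adjusted p below 0.05. Every comparison with untreated spleen shares the same 6 untreated arrays. At 9 days 22 of 29 members rose and 0 fell (19 and 1 with quantile scaling), while 8.4% of all genes were called higher and 5.12% lower. The median difference of the members from untreated was 0.98 on the log2 scale, and that of all genes was 0.00. At 5 days 15 of 28 tested members rose and 1, Fli1, fell, against 17.5% and 13.4% of all genes, with a median of 0.71. The 16 calls at 5 days became 10 without 5-day replicate 4 and 7 without the arrays with over 1000 missing features. At 5 days 10 of 11 mitotic genes (median 1.35), 8 of 13 neutrophil granule genes (median 1.26) and 5 of 15 erythroid genes (median 0.16) were also higher, with 0, 1 and 1 lower. Their list means ranged from 0.76 to 1.18, 2.86 to 3.44 and 3.67 to 4.21 at 5 days and from -0.57 to 0.15, 1.38 to 2.19 and 3.61 to 4.05 untreated, and their part was not tested. The highest mean among the 8 CpG times was at 9 days for 18 of the 29 members and at 5 days for 4. The matching shares of all genes were not computed, so these counts only describe the members.

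**Figure D2:**
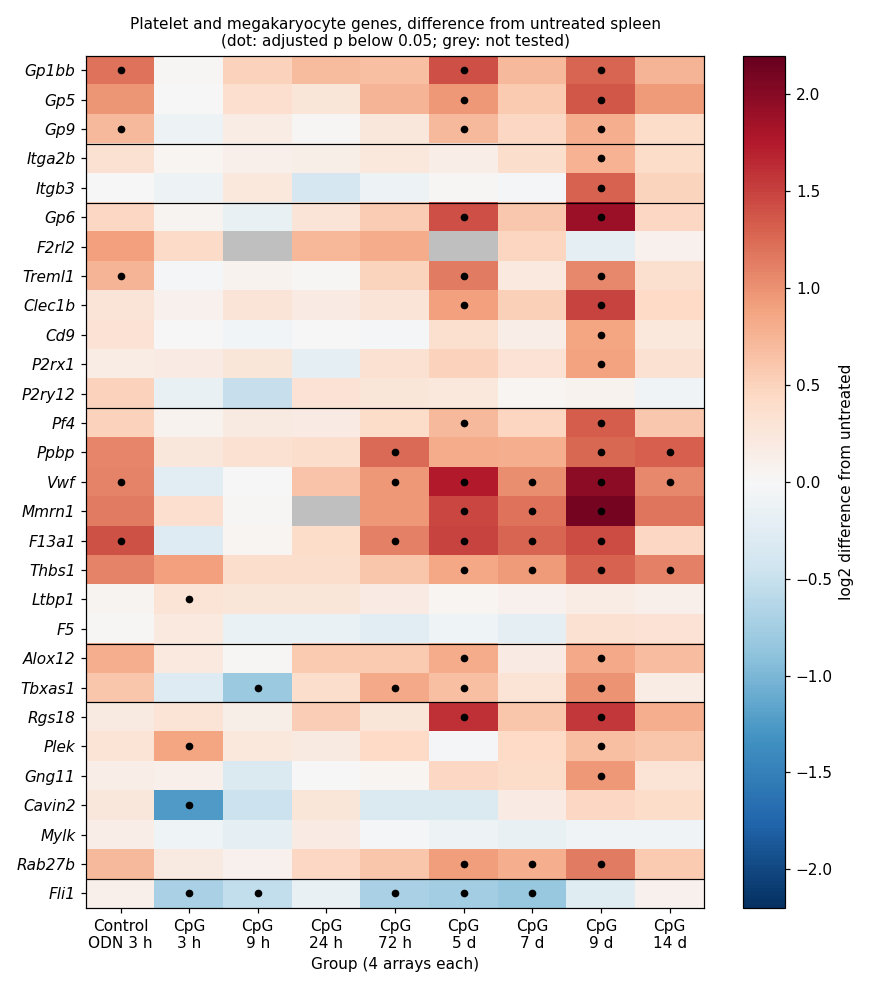
Log2 difference of each measured member from untreated spleen (6 arrays) in the control ODN group and the 8 CpG groups (4 arrays each), in blocks by role; dots mark an adjusted p below 0.05 and grey marks groups that could not be tested. Dots are most frequent at 9 days (22 members) and 5 days (16 members), and Fli1 in the bottom row is lower at 5 of the 8 CpG times.

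Of the von Willebrand factor receptor, which tethers platelets under flow, all 3 measured subunits rose at 5 and at 9 days. Gp1bb, its beta subunit, had untreated log2 ratios of 1.20, 1.24, 1.29, 1.38 and 1.73 (1 array had no value), against 2.35, 2.54, 2.59 and 3.68 at 5 days and 2.09, 2.32, 2.92 and 3.28 at 9 days. Every Gp1bb value at these times was above every untreated one, and the differences were 1.42 ± 0.31 (SE of the fit, adjusted p = 0.000591) and 1.28 ± 0.31 (adjusted p = 0.00449). Gp9 had an untreated range of 1.44 to 2.22 (median 1.75), and read 2.34, 2.35, 2.42 and 2.91 at 5 days and 2.35, 2.42, 2.56 and 3.00 at 9 days. In the other groups Gp9 read 2.19, 2.41, 2.69 and 2.71 with control ODN, 1.30, 1.62, 1.72 and 2.01 at 3 h, 1.76, 1.92, 2.01 and 2.13 at 9 h, 1.59, 1.62, 1.66 and 2.40 at 24 h, 1.56, 1.66, 2.44 and 2.48 at 72 h, 1.90, 2.12, 2.40 and 2.54 at 7 days, and 2.07, 2.17, 2.19 and 2.35 at 14 days. All of these 7 groups overlapped with untreated spleen. At 5 and 9 days neither group overlapped with untreated spleen, with differences of 0.72 ± 0.19 (adjusted p = 0.00394) and 0.80 ± 0.19 (adjusted p = 0.00401). Gp5, the subunit that thrombin cleaves, was higher by 0.96 ± 0.31 at 5 days and by 1.37 ± 0.31 at 9 days (adjusted p = 0.0170 and 0.00260).

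The fibrinogen receptor, the integrin through which platelets aggregate, rose at 9 days and not at 5 days. Its alpha chain Itga2b ranged from 0.70 to 1.21 in untreated spleens (median 0.92), and read 0.87, 0.96, 1.23 and 1.35 at 5 days and 1.24, 1.73, 1.96 and 1.96 at 9 days. All values at 9 days were above the untreated ones, 1 of them only just, and those at 5 days overlapped with them. In the other groups Itga2b read 1.04, 1.23, 1.38 and 1.46 with control ODN, 0.77, 0.91, 0.97 and 1.34 at 3 h, 0.88, 0.93, 1.14 and 1.30 at 9 h, 0.53, 1.10, 1.34 and 1.36 at 24 h, 0.82, 1.14, 1.39 and 1.41 at 72 h, 0.94, 1.27, 1.56 and 1.63 at 7 days, and 1.05, 1.38, 1.49 and 1.52 at 14 days. All of these 7 groups overlapped with untreated spleen. The difference at 9 days was 0.77 ± 0.17 (adjusted p = 0.00182). Its beta chain Itgb3 had an untreated range of 0.09 to 0.92 (median 0.58), read 0.10, 0.17, 0.77 and 1.04 at 5 days and 1.52, 1.71, 1.73 and 2.22 at 9 days. The values at 9 days stood above all 4 at 5 days as well as above untreated spleen. The beta chain was higher at 9 days than untreated by 1.30 ± 0.22 (adjusted p = 0.000154) and higher than at 5 days by 1.28 ± 0.25 (adjusted p = 0.000831).

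Set directly against 5 days, a comparison added after the data were seen, 4 of 28 members were higher at 9 days and 0 lower, where 6.73% of all genes were called higher and 9.04% lower. They were Itgb3, Itga2b (0.62 ± 0.18, adjusted p = 0.0202), the transcription factor Fli1 (0.51 ± 0.17, adjusted p = 0.0398) and the signalling protein Plek (0.71 ± 0.22, adjusted p = 0.0284). The 2 features of Fli1 had means of 1.56 and 1.86 at 5 days and 1.67 and 2.77 at 9 days. Those of Plek had means of -0.31 and 2.31 at 5 days and 0.82 and 2.6 at 9 days. With the run as a term, fitted on the 23 members and 12588 genes with a value on all arrays (not Itgb3), 0 members and 0.183% of genes were called. Without the term the same genes gave 3 called members and 17.4% of genes, and 1 run alone holds arrays of both times. The median member difference was 0.54 with the term and 0.38 without it. Beside this, 11 of 13 neutrophil granule genes, 3 of 5 T-cell genes and 4 of 14 monocyte and macrophage genes were higher at 9 than at 5 days, and 2 of the last were lower. Their list means ranged from 2.86 to 3.44, 1.43 to 1.66 and 2.12 to 2.41 at 5 days and from 4.41 to 4.99, 2.03 to 2.51 and 2.50 to 2.77 at 9 days, and their part was not tested. Without 5-day replicate 3 or 9-day replicate 1 the count was 1, and without 5-day replicate 2, 9-day replicate 2 or 9-day replicate 4 it was 2. Without 9-day replicate 3 it was 6.

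Among the other surface receptors, 5 of 7 rose at 9 days. Gp6, through which platelets respond to collagen and whose promoter is shown above, ranged from 1.71 to 2.88 in untreated spleens (median 2.13). It read 3.18, 3.38, 3.89 and 3.96 at 5 days, 2.49, 2.60, 2.63 and 3.39 at 7 days, 3.44, 4.07, 4.39 and 4.42 at 9 days and 2.23, 2.56, 2.71 and 3.04 at 14 days. The arrays at 5 and 9 days were all above untreated spleen, and those at 7 and 14 days overlapped with it. Differences of Gp6 were 1.41 ± 0.27 at 5 days and 1.89 ± 0.27 at 9 days (adjusted p = 0.000165 and 1.28e-05). Clec1b, the receptor for podoplanin, was higher by 1.49 ± 0.29 (adjusted p = 0.000586) at 9 days, and its 4 values (3.38, 3.69, 3.83 and 3.97) were above the untreated maximum of 2.94. Treml1, a granule membrane receptor, was higher by 1.06 ± 0.21 (adjusted p = 0.000708), the ATP-gated channel P2rx1 by 0.88 ± 0.20 (adjusted p = 0.00244) and the tetraspanin Cd9 by 0.87 ± 0.19 (adjusted p = 0.00202). The remaining 2 did not pass the test at any time: the ADP receptor P2ry12 differed by 0.08 at 9 days and the thrombin co-receptor F2rl2, which had a value on 31 arrays, by -0.21.

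Of the 8 measured granule and secreted proteins, 6 rose at 9 days. Von Willebrand factor, Vwf, had an untreated range of 0.84 to 2.05 (median 1.46). It read 2.90, 2.94, 3.30 and 3.50 at 5 days, 1.84, 2.30, 2.62 and 2.98 at 7 days, 2.81, 3.40, 3.62 and 3.69 at 9 days and 1.77, 2.47, 2.77 and 2.89 at 14 days. No value at 5 or 9 days reached down to the untreated range, and at 7 and 14 days 1 array of each group did. Vwf was higher by 1.74 ± 0.31 at 5 days and 1.96 ± 0.31 at 9 days (adjusted p = 6.6e-05 and 5.33e-05). Endothelial cells also make Vwf, and of 15 endothelial markers 3 rose and 1 fell at 9 days and 0 rose and 1 fell at 5 days. The mean of these 15 markers ranged from 1.55 to 1.99 in untreated spleens, from 1.77 to 1.99 at 5 days and from 1.85 to 2.39 at 9 days, and its part in the Vwf difference was not tested.

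Mmrn1, multimerin, a carrier of factor V in the alpha granule, had the largest member difference at 9 days, 2.11 ± 0.41 (adjusted p = 0.000781). Its untreated values were 0.28, 1.02, 1.09, 1.50 and 2.13 with 1 missing, and those at 9 days were 2.92, 2.95, 3.60 and 3.79. The groups were apart, and the untreated arrays were widely spread. The granule chemokine Pf4 ranged from 0.59 to 1.95 in untreated spleens (median 1.22), read 1.55, 1.68, 2.01 and 2.60 at 5 days and 2.35, 2.52, 2.52 and 2.98 at 9 days. The arrays at 9 days were clear of the untreated range and those at 5 days were not. In the other groups Pf4 read 1.14, 1.65, 2.13 and 2.14 with control ODN, 0.90, 1.20, 1.74 and 2.00 at 9 h, 0.80, 1.23, 1.69 and 2.01 at 24 h, 1.44, 1.52, 1.60 and 2.12 at 72 h, 1.39, 1.66, 1.80 and 2.04 at 7 days, and 1.43, 1.62, 2.02 and 2.35 at 14 days, all of which overlapped with untreated spleen. Pf4 was higher by 0.71 ± 0.28 (adjusted p = 0.0492) at 5 days and by 1.34 ± 0.28 (adjusted p = 0.00114) at 9 days.

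Ppbp, the precursor of another granule chemokine, had an untreated range of 3.68 to 4.93 (median 4.42). It read 4.13, 5.91, 6.21 and 6.24 at 72 h, 4.27, 5.00, 5.29 and 6.23 at 5 days, 5.20, 5.68, 5.82 and 5.86 at 9 days and 5.49, 5.56, 5.81 and 5.91 at 14 days. The arrays at 9 and 14 days stood above untreated spleen, 1 array at 72 h lay far below the other 3, and those at 5 days were spread over both ranges. Ppbp rose at 9 days (1.27 ± 0.34, adjusted p = 0.0108) and did not pass the test at 5 days. F13a1, the A subunit of clotting factor XIII, had an untreated range of 1.41 to 2.66 (median 1.93). It read 2.45, 3.08, 3.25 and 3.45 at 72 h, 3.17, 3.28, 3.47 and 3.83 at 5 days, 3.06, 3.09, 3.37 and 3.42 at 7 days, 3.14, 3.27, 3.49 and 3.65 at 9 days and 2.00, 2.14, 2.66 and 2.80 at 14 days. It was above the untreated range on every array from 5 to 9 days and overlapped with it at 72 h and 14 days. The differences were 1.48 ± 0.26 at 5 days, 1.28 ± 0.26 at 7 days and 1.43 ± 0.26 at 9 days (adjusted p = 5.25e-05, 0.000701 and 0.000278). Monocytes and macrophages also express F13a1, and 3 of 14 of their markers rose at 5 days, 2 at 7 days and 3 at 9 days. Their mean ranged from 1.69 to 2.37 untreated, 2.12 to 2.41 at 5 days, 2.17 to 2.54 at 7 days and 2.50 to 2.77 at 9 days, and its part was not tested.

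Thrombospondin, Thbs1, ranged from -1.46 to 0.44 in untreated spleens (median -0.87). It read -0.39, -0.19, 0.09 and 1.13 at 5 days and 0.06, 0.16, 0.86 and 1.38 at 9 days. In the other groups not given below it read 0.01, 0.07, 0.46 and 1.08 with control ODN, 0.05, 0.16, 0.27 and 0.34 at 3 h, -0.94, -0.70, 0.04 and 0.41 at 9 h, -0.81, -0.44, -0.37 and 0.44 at 24 h, and -0.73, -0.37, -0.14 and 0.94 at 72 h. All of these groups reached below the highest untreated array, and the differences at 5 and 9 days were 0.85 ± 0.33 (adjusted p = 0.0466) and 1.30 ± 0.33 (adjusted p = 0.00660). Clotting factor F5 and Ltbp1, a binding protein of latent TGF-beta, differed by 0.33 and 0.17 at 9 days and did not pass the test.

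**Figure D3:**
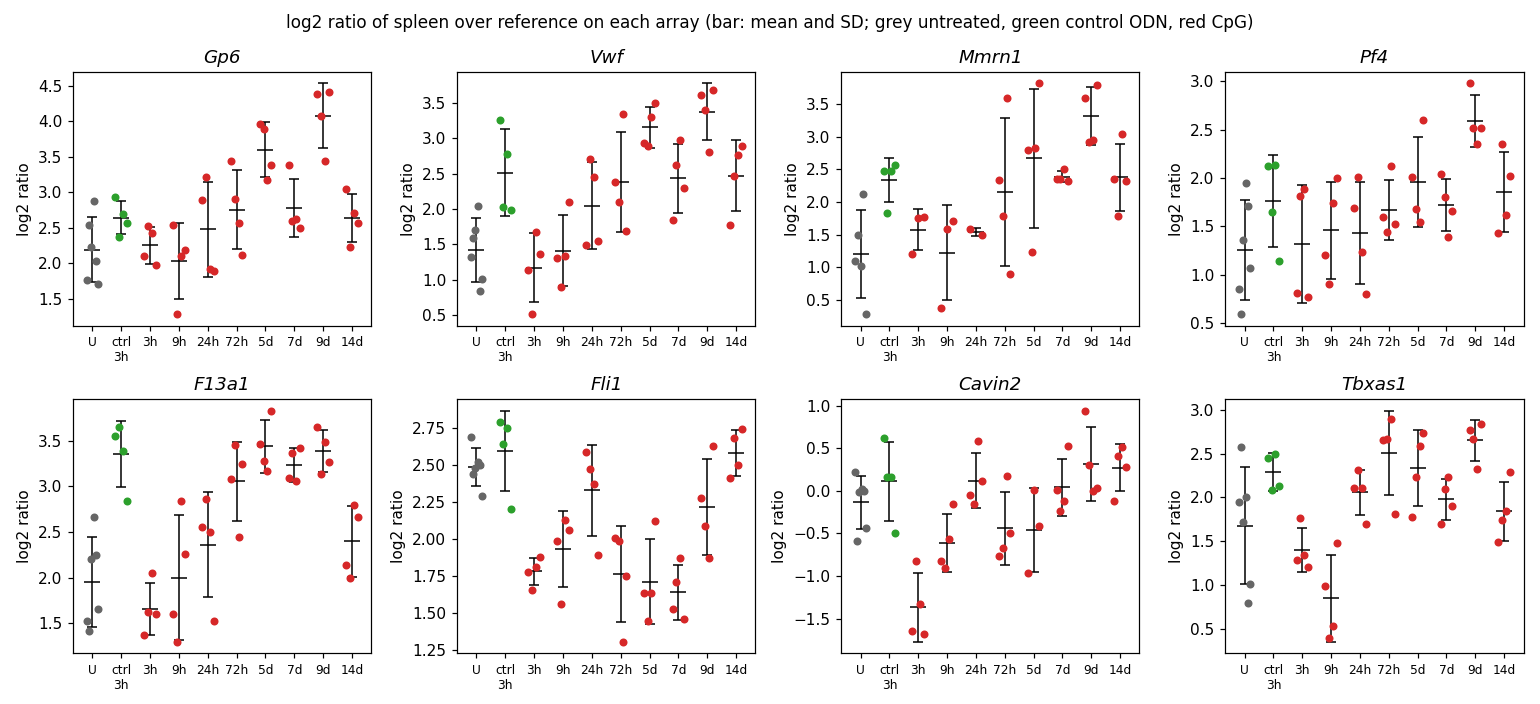
Log2 ratio of spleen over reference on each array for 8 members, by group (U, untreated; ctrl 3h, control ODN; the other labels are times after CpG); points are arrays and bars are group means and SD. Gp6, Vwf, Mmrn1 and Pf4 have their highest group at 9 days, F13a1 is above untreated from 5 to 9 days, and Fli1 and Cavin2 have their low groups elsewhere.

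The eicosanoid enzymes Alox12 (platelet 12-lipoxygenase) and Tbxas1 (thromboxane synthase) rose at 5 and 9 days. Alox12 was higher by 0.82 ± 0.24 and 0.83 ± 0.24 (adjusted p = 0.00888 and 0.0178), and its 4 arrays at 9 days lay between 5.32 and 5.41, above the untreated maximum of 5.00. Tbxas1 ranged from 0.79 to 2.58 in untreated spleens (median 1.83) and read 0.39, 0.53, 0.99 and 1.48 at 9 h, 1.77, 2.23, 2.59 and 2.74 at 5 days and 2.32, 2.67, 2.77 and 2.84 at 9 days. The untreated arrays were so spread that every one of these groups overlapped with them. Tbxas1 fell at 9 h by 0.82 on the log2 scale (SE 0.25, adjusted p = 0.0323) and rose by 0.66 ± 0.25 at 5 days and 0.98 ± 0.25 at 9 days (adjusted p = 0.0434 and 0.00773). One of its 2 features carried the fall at 9 h (-1.41, adjusted p = 0.0270), and the other read -0.23 (adjusted p = 0.603). With the run as a term the difference at 9 h was -1.98 (adjusted p = 0.0714), and with the arrays of both groups alone it was -0.82 (adjusted p = 0.161). The fall lost its call without untreated replicate 1, 2, 3 or 4 or 9-h replicate 1, 2 or 3 (differences from -0.87 to -0.64, adjusted p from 0.0508 to 0.148).

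Of the 6 measured proteins of the cell interior, 4 rose at 9 days. Rgs18, a brake on receptor signalling in platelets, ranged from 3.80 to 5.14 in untreated spleens (median 4.81), and read 5.82, 5.90, 6.68 and 6.79 at 5 days and 5.42, 6.27, 6.28 and 7.01 at 9 days. All 8 of these arrays were above untreated spleen, with differences of 1.61 ± 0.30 and 1.56 ± 0.30 (adjusted p = 9.59e-05 and 0.000515). Rab27b, a GTPase of granule secretion, was higher by 1.14 ± 0.22 (adjusted p = 0.000592), Gng11, a G-protein gamma subunit, by 0.95 ± 0.19 (adjusted p = 0.000807) and Plek, pleckstrin, a protein kinase C substrate, by 0.67 ± 0.20 (adjusted p = 0.0245). Neither of the 2 features of Plek passed alone at 9 days (0.92, adjusted p = 0.0695, and 0.42, adjusted p = 0.255). Cavin2, a caveola coat protein, and the myosin kinase Mylk read 0.45 and -0.07 at 9 days and did not pass the test.

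Fli1, the ETS transcription factor of the set, had lower values than untreated spleen at most times. Its untreated values were tight, from 2.29 to 2.69 (median 2.49). It read 1.66, 1.78, 1.81 and 1.88 at 3 h, 1.31, 1.75, 1.99 and 2.01 at 72 h, 1.45, 1.64, 1.64 and 2.12 at 5 days, 1.46, 1.53, 1.71 and 1.87 at 7 days, 1.87, 2.09, 2.28 and 2.63 at 9 days and 2.41, 2.50, 2.68 and 2.74 at 14 days. At 9 h Fli1 read 1.56, 1.99, 2.06 and 2.13. Every array at 3 h, 9 h, 72 h, 5 days and 7 days was below every untreated one, and the groups at 9 and 14 days overlapped with untreated spleen. Fli1 fell by 0.71, 0.72, 0.77 and 0.84 at 3 h, 72 h, 5 days and 7 days (SE 0.16 each, adjusted p = 0.00123, 0.00195, 0.000261 and 0.000305) and by 0.55 at 9 h (SE 0.16, adjusted p = 0.0192). The fall at 9 h lost its call without 9-h replicate 2 (-0.43, adjusted p = 0.128). With the run as a term, the differences at 3 and 9 h were -0.59 (adjusted p = 0.366) and -0.37 (adjusted p = 0.883).

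Lymphocytes and endothelial cells express Fli1 too. At 5 days 4 of 5 T-cell markers and 2 of 4 B-cell markers fell, and of 15 endothelial markers 0 rose and 1 fell. The T-cell mean ranged from 2.07 to 2.93 in untreated spleens and from 1.43 to 1.66 at 5 days, and the B-cell mean from 3.00 to 3.68 and from 2.43 to 2.68. Their part in the Fli1 difference was not tested. At 3 h 1 of 5 T-cell and 1 of 4 B-cell markers fell, with means of 2.26 to 2.57 and 2.76 to 3.17. Of 15 endothelial markers 0 rose and 1 fell at 3 h, and their mean ranged from 1.46 to 1.67. It ranged from 1.55 to 1.99 untreated and from 1.77 to 1.99 at 5 days, and its part was not tested.

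At 72 h 4 of 29 members rose and 1, Fli1, fell, against 8.94% and 6.01% of all genes. The 4 were Ppbp (1.25 ± 0.34, adjusted p = 0.0122), F13a1 (1.11 ± 0.26, adjusted p = 0.00396), Vwf (0.96 ± 0.31, adjusted p = 0.0328) and Tbxas1 (0.84 ± 0.25, adjusted p = 0.0215). The Vwf arrays read 1.69, 2.10, 2.39 and 3.35 and those of Tbxas1 1.81, 2.66, 2.67 and 2.90. Each of these 4 members had an array within the untreated range. Replicate 4 at 72 h had the lowest mean of the 10 genes, 1.81 against 2.35 to 2.61 for the others, and without it 9 members were called. Without 72-h replicate 3 the count was 2, and without 72-h replicate 1 or 2 or untreated replicate 5 or 6 it was 3. Ppbp lost its call without replicate 2 or 3 (1.05 and 1.04, adjusted p = 0.0693 and 0.0769). Vwf lost its call without replicate 1 or 3 or untreated replicate 5 or 6 (0.64 to 0.96, adjusted p from 0.0671 to 0.217). Clec1b has 2 features, and 72-h replicate 1 lacked the one with the higher ratio, so its value of 1.76 is the other feature alone and also enters the mean of the 10 genes.

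At 7 days 5 members rose and 1 fell of 29, against 8.68% and 6.89% of all genes. F13a1 and Fli1 are given above, and the others were Mmrn1 (1.19 ± 0.41, adjusted p = 0.0470), Vwf (1.02 ± 0.31, adjusted p = 0.0216), Thbs1 (0.94 ± 0.33, adjusted p = 0.0480) and Rab27b (0.80 ± 0.22, adjusted p = 0.0109). Mmrn1 read 2.33, 2.36, 2.36 and 2.51, all above untreated spleen, and Thbs1 -0.11, 0.18, 0.35 and 0.57, which overlapped with it. Mmrn1 lost its call without any 1 array of the 7-day group or without untreated replicate 1, 3 or 5 (0.96 to 1.21, adjusted p from 0.0758 to 0.137). Vwf lost its call without 7-day replicate 2 or 3 or untreated replicate 5 (0.84 to 0.96, adjusted p from 0.0560 to 0.110), and the count was 3 without 7-day replicate 2, 3 or 4 or untreated replicate 5.

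At 14 days 3 of 29 members rose and 0 fell, against 2.77% and 1.77% of all genes, with a member median of 0.44. They were Ppbp (1.32 ± 0.34, adjusted p = 0.0213), Thbs1 (1.11 ± 0.33, adjusted p = 0.0440) and Vwf (1.06 ± 0.31, adjusted p = 0.0426). The Thbs1 arrays read 0.06, 0.38, 0.48 and 0.77. Ppbp was clear of the untreated range, and Thbs1 and Vwf overlapped with it. With quantile scaling the count was 1. The count was 0 without 14-day replicate 2 or 3, and 1 without 14-day replicate 4 or untreated replicate 1, 2 or 6. Differences of the 3 members over these fits and those without untreated replicate 3 or 5 or 14-day replicate 1 were 0.92 to 1.28 wherever a call was lost (adjusted p from 0.0505 to 0.132).

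The groups at 72 h, 7 days and 14 days lie in 1 run, so they could be compared within it. Between 72 h and 14 days 0 of 29 members were higher and 3 lower at 72 h, where 15.5% of all genes were called higher and 13.6% lower. Fli1 differed by -0.82 ± 0.17 (adjusted p = 0.000574), and its groups did not overlap. Without the arrays with over 1000 missing features Fli1 lost its call (-0.54, adjusted p = 0.0822), as did Cavin2 and F5. Cavin2 read -0.77, -0.67, -0.50 and 0.17 at 72 h against -0.12, 0.28, 0.41 and 0.51 at 14 days (-0.71 ± 0.26, adjusted p = 0.0328), so that 1 array at 72 h overlapped with the 14-day group. F5 read 0.06, 1.06, 1.12 and 1.13 against 1.14, 1.36, 1.49 and 1.58 (-0.55 ± 0.20, adjusted p = 0.0360), and without 72-h replicate 3, the array at 0.06, the difference was -0.29 (adjusted p = 0.271). F5 also lost its call without 14-day replicate 1, 2 or 4 (-0.56 to -0.48, adjusted p from 0.0531 to 0.0967). Cavin2 lost its call without 72-h replicate 1, 2 or 4 or 14-day replicate 2, 3 or 4 (-0.71 to -0.60, adjusted p from 0.0564 to 0.106), and the count was 1 without 14-day replicate 2.

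Between 7 and 14 days 1 member was higher and 1 lower of 29, against 10.8% of all genes each way. F13a1 was higher at 7 days by 0.84 ± 0.29 (adjusted p = 0.0325) and Fli1 differed by -0.94 ± 0.17 (adjusted p = 0.000215), both without overlap of the groups. The count of 2 became 1 without 7-day replicate 2 or 4 or 14-day replicate 1 or 2. In the same run, 3 of 5 T-cell and 3 of 4 B-cell markers were lower at 7 than at 14 days, and their part in the Fli1 difference was not tested. Between 7 days and 72 h 0 of 29 members passed limma's test in either direction, with 0 at an unadjusted p below 0.05, where 1.08% of all genes were called higher and 2.58% lower. Between 72 h and 24 h 0 of 28 members rose and 1 fell, Fli1 (-0.57 ± 0.17, adjusted p = 0.0429), against 3.6% and 1.9% of all genes. That count was 0 without 24-h replicate 1, 2 or 3 or 72-h replicate 3.

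The fall after 9 days was examined directly in a comparison with 14 days, added after the data were seen. At 9 days 6 of 29 members were higher and 0 lower than at 14 days, against 5.69% and 3.99% of all genes, with a member median of 0.53 and an all-gene median of 0.00. They were Gp6 (1.44 ± 0.30, adjusted p = 0.00301), Clec1b (1.06 ± 0.32, adjusted p = 0.0299), F13a1 (0.99 ± 0.29, adjusted p = 0.0245), Itgb3 (0.82 ± 0.25, adjusted p = 0.0295), Treml1 (0.71 ± 0.23, adjusted p = 0.0437) and Gng11 (0.65 ± 0.21, adjusted p = 0.0424). Except for Treml1, no array of these genes at 14 days reached the lowest at 9 days. The count was 1 without 14-day replicate 1 or 2, 2 without 9-day replicate 1 or 4, and 3 without 14-day replicate 3. The groups share no run, so that run and time cannot be told apart here.

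**Figure D4:**
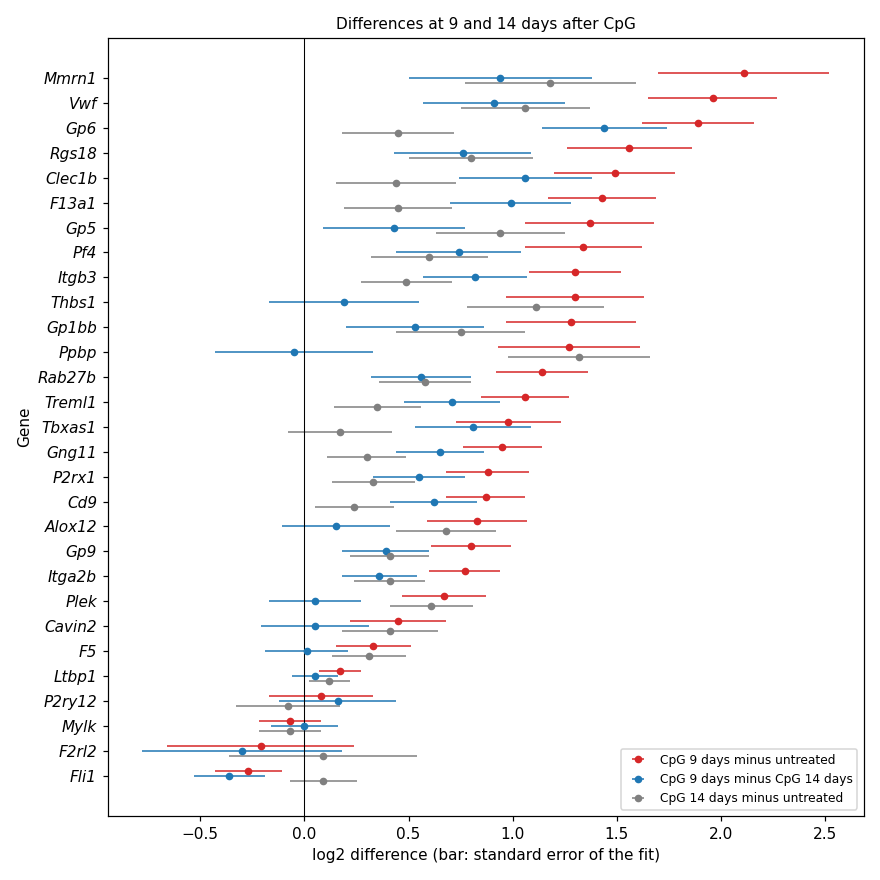
Log2 difference of each measured member between 9 days and untreated (red), 9 and 14 days (blue) and 14 days and untreated (grey); bars are standard errors of the fit. Members are ordered by the red points, which run from -0.27 for Fli1 to 2.11 for Mmrn1, and the blue point is farthest right for Gp6 (1.44).

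During the first day few members changed. At 3 h 2 of 29 rose and 2 fell, against 7.7% and 3.93% of all genes. Cavin2 had an untreated range of -0.59 to 0.22 (median -0.01) and read -1.68, -1.65, -1.33 and -0.82 at 3 h and -0.91, -0.82, -0.57 and -0.15 at 9 h. All 4 arrays at 3 h were below untreated spleen, and at 9 h the group overlapped with it. Cavin2 differed by -1.24 ± 0.23 (adjusted p = 0.000157) at 3 h. Plek had an untreated range of 0.53 to 1.53 (median 1.09) and read 1.83, 1.85, 1.89 and 2.07 at 3 h, above every untreated array, a difference of 0.86 ± 0.20 (adjusted p = 0.00242). One of its features gave 1.44 (adjusted p = 1.45e-05) and the other 0.28 (adjusted p = 0.746). Ltbp1 passed at 0.30 ± 0.10 (adjusted p = 0.0432), but its 7 features did not move together: 1 read 1.69 (adjusted p = 1.45e-09) and the others -0.21 to 0.73.

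Other members did not pass the test at 3 h. Vwf read 0.51, 1.13, 1.37 and 1.67 at 3 h, Pf4 0.77, 0.81, 1.81 and 1.89, and F13a1 1.37, 1.60, 1.62 and 2.05. All 3 overlapped with untreated spleen. Vwf read 0.89, 1.31, 1.34 and 2.10 at 9 h, and 1.49, 1.55, 2.45 and 2.71 at 24 h, and F13a1 1.30, 1.60, 2.26 and 2.84 at 9 h, and 1.53, 2.50, 2.55 and 2.86 at 24 h, again overlapping with untreated spleen. At 9 h 0 of 28 members rose and 2 fell, Tbxas1 and Fli1, against 5.07% and 3.45% of all genes. At 24 h 0 of 28 members passed limma's test, with 4 at an unadjusted p below 0.05, against 8.03% of all genes called higher and 2.87% lower. Leaving out 24-h replicate 2 gave 1 call and leaving out 24-h replicate 4 gave 3.

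Control ODN, given 3 h before sampling, was also followed by higher values of some platelet genes. All 29 differences from untreated spleen were above 0, with a median of 0.50 against 0.06 for all genes. The share of all genes above 0 was not computed. Against untreated spleen 5 of 29 members rose and 0 fell, where 2.45% and 1.07% of all genes were called. They were F13a1 (1.40 ± 0.26, adjusted p = 0.00724), Gp1bb (1.19 ± 0.31, adjusted p = 0.0317), Vwf (1.09 ± 0.31, adjusted p = 0.0424), Treml1 (0.74 ± 0.21, adjusted p = 0.0421) and Gp9 (0.71 ± 0.19, adjusted p = 0.0350). F13a1 read 2.84, 3.39, 3.55 and 3.65, Vwf 1.99, 2.03, 2.78 and 3.26, and Gp1bb 1.70, 2.36, 2.83 and 3.35. Only F13a1 was above untreated spleen on every array. Leaving out control replicate 1 or 3 gave a count of 0, control replicate 2 or untreated replicate 1 or 6 gave 1, untreated replicate 5 gave 2 and untreated replicate 2 gave 3. Leaving out control replicate 4 gave 9 and untreated replicate 4 gave 8. F13a1 itself read 1.34 and 1.39 without control replicate 1 or 3 (adjusted p = 0.0583 and 0.0605). Vwf lost its call without control replicate 1, 2 or 3 or untreated replicate 1, 2, 5 or 6 (0.85 to 1.26, adjusted p from 0.0565 to 0.209). Gp1bb lost its call without control replicate 1, 2 or 3 or untreated replicate 1, 2 or 6 (0.93 to 1.26, adjusted p from 0.0558 to 0.173). With quantile scaling the count was 1 and the member median 0.26. Beside this, 5 of 14 monocyte and macrophage markers, 2 of 15 erythroid markers, 2 of 13 neutrophil markers and 1 of 15 endothelial markers rose with control ODN, and their part was not tested.

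Against control ODN at the same 3 h, 0 of 29 members were higher and 8 lower with CpG, where 9.23% of all genes were called higher and 11.5% lower. The lower genes were F13a1 (-1.70 ± 0.29, adjusted p = 2.88e-05), Cavin2 (-1.48 ± 0.26, adjusted p = 4.63e-05), Vwf (-1.34 ± 0.34, adjusted p = 0.00433), Gp1bb (-1.16 ± 0.33, adjusted p = 0.00967), Tbxas1 (-0.89 ± 0.28, adjusted p = 0.0189), Gp9 (-0.84 ± 0.21, adjusted p = 0.00366), Fli1 (-0.82 ± 0.17, adjusted p = 0.000656) and Treml1 (-0.77 ± 0.23, adjusted p = 0.0157). In each of the 8 every CpG array was below every control array. Cavin2 and Fli1 also fell against untreated spleen, and the other 6 did not pass that test. The 2 treatments share no run, so run and treatment cannot be told apart, and without control replicate 1 the count was 5. In the same comparison 5 of 15 endothelial, 3 of 4 B-cell, 1 of 5 T-cell and 4 of 14 monocyte and macrophage markers were lower with CpG, and 2 of the last were higher. The endothelial mean ranged from 1.46 to 1.67 with CpG and from 1.70 to 2.39 with control ODN, the B-cell mean from 2.76 to 3.17 and from 3.21 to 4.24, the T-cell mean from 2.26 to 2.57 and from 2.52 to 2.99, and the monocyte and macrophage mean from 2.31 to 2.60 and from 2.36 to 2.89. Their part was not tested.

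The later groups were also set against control ODN, after the data were seen. At 9 days 7 of 29 members were higher than with control ODN and 0 lower, against 9.17% and 11.4% of all genes: Gp6 (1.44 ± 0.30, adjusted p = 0.00115), Rgs18 (1.36 ± 0.33, adjusted p = 0.00368), Itgb3 (1.29 ± 0.25, adjusted p = 0.000496), Clec1b (1.21 ± 0.32, adjusted p = 0.00748), Pf4 (0.83 ± 0.30, adjusted p = 0.0484), Gng11 (0.81 ± 0.21, adjusted p = 0.00645) and P2rx1 (0.71 ± 0.22, adjusted p = 0.0185). None of the 5 members that had risen with control ODN was among them. Those 5 were picked for high values on these same control arrays, so their absence is no independent result. The 9-day and control ODN groups share no run. At 14 days 0 members were higher and 1 lower, F13a1 (-0.96 ± 0.29, adjusted p = 0.0394), against 2.62% and 3.12% of all genes, and these 2 groups share 1 run. That call was lost, for a count of 0, without control replicate 1, 2 or 3 or 14-day replicate 1 or 2, and with the run as a term.

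Regulators of the megakaryocyte lineage were followed as a separate list of 20 genes, 18 of them measured. At 9 days 7 rose and 1 fell (median 0.50), where 8.4% and 5.12% of all genes were called, and at 5 days 6 rose and 1 fell (median 0.32), where 17.5% and 13.4% were. Gata1, the erythroid and megakaryocyte GATA factor, was higher by 0.83 ± 0.20 at 9 days (adjusted p = 0.00413), its cofactor Zfpm1 by 1.18 ± 0.22 (adjusted p = 0.000369), Tal1 by 1.46 ± 0.33 (adjusted p = 0.00239) and Nfe2, a factor of platelet release, by 1.08 ± 0.30 (adjusted p = 0.0116). Most of these factors also act in the erythroid lineage. At 3 h 1 rose and 2 fell (all genes 7.7% and 3.93%), and at 14 days 0 rose and 1 fell (2.77% and 1.77%). Against control ODN at 3 h, 2 were higher and 6 lower with CpG (all genes 9.23% and 11.5%).

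A list of 35 genes of platelet signalling and secretion, many shared with leukocytes, had 34 measured members. At 9 days 8 rose and 1 fell, with a median of 0.25, where 8.4% of all genes were called higher and 5.12% lower. P-selectin, Selp, of granule membranes, was higher by 1.10 ± 0.18 (adjusted p = 8.48e-05), the phospholipase Plcb2 by 1.09 ± 0.25 (adjusted p = 0.00268), the adhesion receptor Cd226 by 0.93 ± 0.18 (adjusted p = 0.000498) and the ADP receptor P2ry1 by 0.86 ± 0.20 (adjusted p = 0.00398). Selp, which endothelial cells also make, was higher at 3 h as well (1.69 ± 0.18, adjusted p = 2.08e-09), when 3 genes of the list rose and 1 fell, shares near those of all genes (7.7% and 3.93%).

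Markers of other cells moved at 9 days beside the platelet genes. Of 13 neutrophil granule genes 12 rose (median 2.83), of 14 tested erythroid genes 6 rose and 0 fell (median 0.64), of 11 mitotic genes 6 rose (median 0.75) and of 5 mast cell and basophil genes 3 rose and 1 fell. The mean of the neutrophil list ranged from 1.38 to 2.19 in untreated spleens, 4.41 to 4.99 at 9 days and 4.05 to 4.47 at 14 days. The erythroid mean ranged from 3.61 to 4.05 untreated and 3.66 to 4.67 at 9 days, and the mitotic mean from -0.57 to 0.15 and from 0.14 to 0.87. Of 7 stem and progenitor genes 0 passed limma's test at 9 days, and of 5 smooth muscle genes 1 rose and 1 fell. The part of these lists in the platelet gene differences was not tested.

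**Figure D5:**
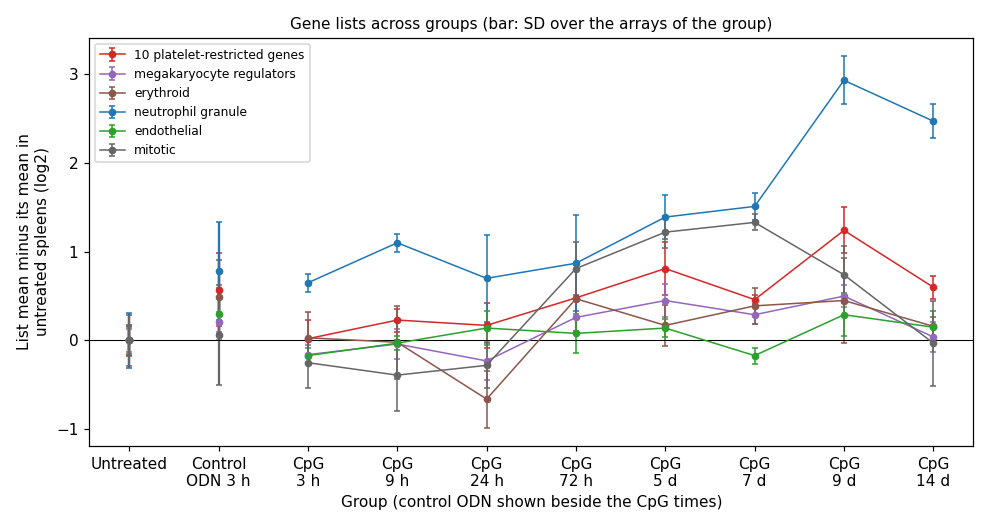
Mean log2 ratio of 6 gene lists in each group minus the same list's mean in untreated spleens; bars are SD over the arrays of the group, and lines join the CpG times. The 10 core platelet genes (labelled platelet-restricted in the figure) and the neutrophil granule genes are both highest at 9 days, and the neutrophil list remains high at 14 days.

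Members differed in how far they followed the rest of the set over the 42 arrays. This is given as Pearson correlations with the mean of the 10 core platelet genes (the gene itself left out). No test was made, since arrays of a group share their treatment. The values were highest for Gp5 (0.82, 41 arrays), Vwf and Treml1 (both 0.81), and lowest for F2rl2 (-0.10, 31 arrays), Ltbp1 (0.00), Fli1 (0.11), Mylk (0.19) and Plek (0.23). Among all genes measured on every array, the 10 closest to the mean (here with all 10 genes in it) included 4 members, Treml1 (0.854), Gp9 (0.827), Vwf (0.811) and Gp6 (0.796). The other 6 were Pcp4l1 (0.883), Htra3 (0.813), the neutrophil granule proteases Ctsg (0.813) and Prtn3 (0.796), myeloperoxidase Mpo (0.804) and Fcnb (0.794).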

How the data were processed

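Spleen RNA was measured on 42 arrays in 10 groups. Per the labels, spleen cDNA carried Cy5 and reference cDNA Cy3, and the deposited values are log2 ratios per feature, as the authors made them. The labels do not state the log base, the spot filter or how arrays were normalized. Array medians were -0.014 to 0.019. Features with 1 symbol (23485) were averaged per gene. The lineage members, lists and tests were chosen with earlier results of these data known. Groups came from the labels. limma 3.58.1 (R 4.3.3) fitted all 42 arrays with 1 coefficient per group. A gene was tested with at least 3 values per group and called at a Benjamini-Hochberg adjusted p below 0.05, 2-sided. The ± of a difference is its SE. Array values (untreated as range and median) are given in every group for Pf4, Itga2b, Gp9, Vwf, F13a1 and Thbs1, and in the groups concerned for the 3 called members with the largest difference in each comparison with untreated and between 72 h and 14 days. Array values of Itgb3 and Clec1b were added after they were seen. For lists, up to 4 called genes are named. Runs end where database numbers lie over 12 apart. Deviations of same-numbered replicates from their group means had a mean r of 0.041 over 180 pairs, 63 of them above 0.1. Pairs with other numbers had a mean r of -0.012 over 612 pairs, 167 of them above 0.1. On simulated data in the layout of 9 days against untreated, 31.3%, 86.6% and 95.5% of genes changed by 0.5, 1 and 2 were recovered over 15235 genes, with 3 false among 145 calls. In the layout of 72 h against 14 days these were 10.4%, 71.6% and 95.5%, with 2 false among 120 calls. The simulated noise was independent for each gene and held no run effect, so false calls due to run were not examined. Alternatives changed scaling, missing-value filters, spread, weights, blocks and arrays. Comparisons of 9 days with 5 days, 14 days and control ODN, of 14 days with control ODN, and the fit without arrays alone in their run were chosen after seeing the data. Figures used matplotlib 3.10.9.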

Additional observations from a re-analysis of the deposited data

Results flagged for a closer look

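Of 165 groups of values examined (shown members and the mean of the 10 core platelet genes, by group), 9 held a sample far from the others. By chance about 1 in 20 would. Ppbp in 72-h replicate 4 read 4.13, with its nearest neighbour at 5.91. Mmrn1 read 1.84 in control ODN replicate 2 (nearest 2.48) and 2.51 in 7-day replicate 3 (nearest 2.36). Gp6 in 7-day replicate 1 read 3.39 (nearest 2.63), and Gp1bb in 3-h replicate 2 read 0.98 (nearest 1.48). F5 in 72-h replicate 3 read 0.06 (nearest 1.06). Gp9 read 2.40 in 24-h replicate 2 (nearest 1.66) and 2.91 in 5-day replicate 4 (nearest 2.42), and the mean of the 10 genes in the same 5-day replicate was 3.12 (nearest 2.59).

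Tbxas1, thromboxane synthase, was lower than untreated at 9 h and higher at later times, and the differences between those times were computed with limma. These times were picked for their calls, so the values describe that pattern and are no independent test, and the 9-h arrays share no run with the later ones. It was higher than at 9 h by 1.66 at 72 h, by 1.48 at 5 days and by 1.80 at 9 days.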

How the results depend on the processing

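The count at 9 days against untreated stayed between 17 and 23 under every alternative that could be fitted. Run as a fixed block could not be fitted for it, since no runs link these 2 groups. Counts of called members that moved by over 1.5 times were as follows, and the cause was not tested. The share of all genes called is given where it was computed. Quantile scaling gave 1 at 14 days, 1 with control ODN, 2 for 9 against 5 days and 0 for 14 days against control ODN, and turned the member median at 3 h from 0.06 to -0.11. Array weights gave 14 at 72 h, 10 at 7 days, 7 at 14 days, 7 for 72 against 24 h, 5 for 72 h against 14 days, 3 for 7 days against 72 h, and 10 for 9 against 14 and against 5 days. With these weights 38.2%, 24.9%, 7.79%, 13.3%, 44.3%, 23.9%, 14.3% and 27.5% of all genes were called in those comparisons, in that order. Run as a random block gave 1 at 14 days, 1 with control ODN and 0 for 72 against 24 h, where 3.11%, 1.26% and 4.54% of all genes were called. Run as a fixed block, on genes with a value on all arrays, gave 1 at 3 h and 0 at 9 h, for 9 against 5 days and for 14 days against control ODN. Of all those genes 3.11%, 1.13%, 0.183% and 4.73% were called. Without the block those genes gave 3, 2, 3 and 1 members, with 12.7%, 9.14%, 17.4% and 5.79% of genes called. The arrays of the compared groups alone gave 1 at 9 h, 2 at 72 h, 6 at 14 days, 0 with control ODN, 0 for 72 against 24 h, 4 for 7 against 14 days, 11 for 9 against 14 days, 2 for 9 against 5 days and 0 for 14 days against control ODN. Leaving out arrays with over 1000 missing features gave 1 at 9 h, 2 at 72 h, 7 at 5 days, 0 at 14 days, 1 with control ODN, 0 for 72 against 24 h, 72 h against 14 days, 9 against 14 days and 14 days against control ODN, and 1 for 7 against 14 days. Leaving out arrays alone in their run gave 9 at 5 days, 0 for 72 against 24 h and 1 for 9 against 14 days. Single features gave 1 at 24 h, 5 at 14 days, 2 for 72 against 24 h, 5 for 72 h against 14 days, 2 for 7 days against 72 h and 2 for 14 days against control ODN.

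With the replicate number as a block, the counts were 3 at 72 h, 10 at 5 days, 3 at 7 days, 1 with control ODN, 0 for 72 against 24 h and 5 for 72 h against 14 days. At 9 days 20 members were called. Of all genes 10.4%, 26.2%, 13.6%, 0.166%, 5.47%, 30.1% and 10.2% were called in those comparisons, in that order. The samples share only a number.

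Leaving out each array in turn gave 3 to 4 at 3 h, 0 to 2 at 9 h, 0 to 3 at 24 h, 2 to 9 at 72 h, 10 to 16 at 5 days, 3 to 6 at 7 days, 21 to 22 at 9 days, 0 to 4 at 14 days and 0 to 9 with control ODN, all against untreated. It gave 5 to 10 for CpG against control ODN at 3 h, 0 to 1 for 72 against 24 h, 1 to 3 for 72 h against 14 days, 1 to 3 for 7 against 14 days, 0 for 7 days against 72 h, 1 to 5 for 9 against 14 days, 1 to 6 for 9 against 5 days, 5 to 9 for 9 days against control ODN and 0 to 1 for 14 days against control ODN. No called difference of a shown member changed sign. With 4 arrays a group, small differences could not be detected reliably.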

Other observations

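One further array feature carries the symbols of Septin5 and Gp1bb together and was left out of the gene values. At 9 days against untreated it read -0.03 (adjusted p = 0.957), whereas the feature of Gp1bb alone read 1.28 (adjusted p = 0.00505). Fli1 has 2 features that agreed at 3 h (-0.69 and -0.73) and differed at 9 days (-0.56, adjusted p = 0.0365, and 0.03, adjusted p = 0.945). Clec1b has 2 features that read 1.09 (adjusted p = 0.0144) and 0.29 (adjusted p = 0.679) at 72 h. The gene mean was not called, and 1 of its 4 arrays at 72 h lacked the first of these features.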
